A study of Mus musculus with 12 samples.

Results

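The genes described here are 29 genes of cholesterol synthesis and of its control by the sterol regulatory element binding proteins (SREBPs). They were chosen by name: a gene entered when its symbol in the array's annotation table was one of the listed symbols, and its brightest probe set stood for it. Of the 29, 28 had a probe set with that single symbol, and Acat2 was not analysed here. All 28 lay above the brightness limit, so all 28 were among the 10916 genes tested of 18193 genes on the array.

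RNA was measured on 12 one-colour arrays from the mouse melanoma cell line B16-F10 (ATCC CRL-6475), in 3 groups of 4 arrays. FoxD3-VP16 cells received the pMES plasmid with chicken FoxD3 whose C-terminal repression domain had been exchanged for the transactivation domain of VP16. FoxD3 cells received pMES with chicken FoxD3, a forkhead factor active in premigratory neural crest, and empty-vector cells received pMES alone. In all 3 groups the plasmid also made EGFP through an internal ribosome entry site under a chick beta-actin promoter, and cells positive for EGFP were collected by sorting at 24 h. The expression was therefore transient, and the probe set of mouse Foxd3 does not check the chicken transgene. The comparisons ask how these genes differed between the 2 forms of FoxD3 and between each form and the empty vector.

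Cells make cholesterol from acetyl-CoA through mevalonate, isoprenoid diphosphates, squalene and lanosterol. When membranes hold little sterol, SCAP escorts SREBP from the endoplasmic reticulum to the Golgi apparatus, where proteases release its transcription factor domain. INSIG proteins hold SCAP back when sterol is plentiful, and nuclear SREBP acts on promoters of the enzymes together with the general factors NF-Y and Sp1.

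The promoters of these genes are where such factors would act, so those available for the genes called below are shown first. Called means a Benjamini-Hochberg adjusted p under 0.05 over all genes tested. Of the 11 genes called in at least 1 comparison, without or with the replicate number as a block, 4 had a single promoter in the RefSeq table (GRCm38.p6): Idi1 on the plus strand at chr13:8885356-8885605, Nsdhl on the plus strand at chrX:72918271-72918520, Tm7sf2 on the minus strand at chr19:6067851-6068100 and Insig1 on the plus strand at chr5:28071162-28071411. The 250 bases before each annotated start are given 5′ to 3′ in the direction of the gene, and capitals mark the NF-Y box ATTGG and the Sp1 box GGGCGG on either strand.
Idi1: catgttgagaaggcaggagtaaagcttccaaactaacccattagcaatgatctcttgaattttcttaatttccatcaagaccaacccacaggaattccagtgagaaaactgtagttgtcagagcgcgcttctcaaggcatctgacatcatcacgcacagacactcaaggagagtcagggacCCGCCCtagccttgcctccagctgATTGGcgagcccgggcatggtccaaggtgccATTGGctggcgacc
Nsdhl: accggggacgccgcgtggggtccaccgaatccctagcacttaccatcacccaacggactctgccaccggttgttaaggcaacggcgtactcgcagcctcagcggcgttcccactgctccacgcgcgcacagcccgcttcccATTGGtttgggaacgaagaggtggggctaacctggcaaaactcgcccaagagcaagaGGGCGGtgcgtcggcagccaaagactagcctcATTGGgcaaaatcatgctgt
Tm7sf2: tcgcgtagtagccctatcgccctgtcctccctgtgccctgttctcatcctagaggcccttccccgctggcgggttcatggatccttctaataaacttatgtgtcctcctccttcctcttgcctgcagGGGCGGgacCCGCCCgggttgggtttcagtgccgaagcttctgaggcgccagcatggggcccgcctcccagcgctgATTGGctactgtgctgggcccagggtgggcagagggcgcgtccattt
Insig1: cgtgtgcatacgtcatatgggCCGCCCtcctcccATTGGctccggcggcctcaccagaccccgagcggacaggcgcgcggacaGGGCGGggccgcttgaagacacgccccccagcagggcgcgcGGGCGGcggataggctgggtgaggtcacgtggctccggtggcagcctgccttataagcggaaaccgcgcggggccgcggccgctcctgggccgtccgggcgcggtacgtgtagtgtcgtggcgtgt
The NF-Y box occurred 2 times for Idi1, 2 times for Nsdhl, and 1 time each for Tm7sf2 and Insig1. The Sp1 box occurred 1 time for Idi1, 1 time for Nsdhl, 2 times for Tm7sf2 and 3 times for Insig1. The letters TCACNCC, a short form of the sterol element, and the forkhead cores TGTTTAC and TGTTTGC were in none of these 4 windows.

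Over 29 promoters of 21 listed genes in the table, Acat2 included, searched on both strands in windows of 300 bases, ATTGG was in 65.5%, against 37.4% of all 32851 promoters. GGGCGG was in 82.8% of the 29, against 35.7% of all. TCACNCC was in 20.7% of the 29 (6 promoters of 5 genes), against 15.6% of all. TGTTTAC and TGTTTGC were in 0 of the 29, against 3.65% and 5.07% of all. These are matches of letters, ATTGG and GGGCGG can share bases where they adjoin, and several promoters of 1 gene are not independent.

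The arrays differed by replicate number as well as by vector. For the median one of the 28 genes, replicate number accounted for 49.0% of the variance and vector for 23.7%, beside 49.0% and 22.2% for all genes tested. The 3 arrays numbered 1 stood apart, with limma array weights of 0.17 to 0.18. Those numbered 2 had weights of 0.31 to 0.82, against 1.89 to 5.51 for those numbered 3 and 4. Arrays of the same number deviated together, so the blocked fit, with replicate number as a block, stands beside each result whose call it changes. Both fits used limma, and below the words in limma refer to the fit without the block. All 8 B16-F10 melanoma markers were above the brightness limit. The summed intensity of these was 191605 to 216786 with FoxD3-VP16, 183602 to 208947 with FoxD3 and 210236 to 236963 with the empty vector. Of 8 fibroblast markers 4 were above that limit. Their summed intensity, over all 8, was 821 to 1156 with FoxD3-VP16, 1097 to 1385 with FoxD3 and 446 to 632 with the empty vector. Such a sum is weighted to the brighter genes. Of the 4 above the limit, 3 were higher with FoxD3 than with the empty vector, and Col1a2 was lower (-0.72). The part of these markers in the results below was not tested. Of the other lists, 1 of 5 leukocyte, 0 of 5 endothelial, 0 of 5 keratinocyte and 1 of 3 hepatocyte markers on the array were above the limit. In such bulk samples, fewer cells with a transcript and less of it per cell cannot be told apart. Nothing in the labels says that the 4 replicates came from different cultures, so the p-values measure a spread that may be technical, and the number of arrays limits the precision.

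FoxD3-VP16 against FoxD3. With FoxD3-VP16, Stard4 and Idi1 rose relative to FoxD3, and these were the only genes of the set called in the fit without the block. Stard4, which carries cholesterol between membranes inside the cell, was 1.75-fold higher, and Idi1, the isomerase that makes the allylic isoprenoid unit, was 1.56-fold higher. These 2 of 28 called genes are 7.14%, below the 9.57% called among all 10916 genes (4.44% higher and 5.13% lower). In limma 4 of the 28 had an unadjusted p under 0.05, beside 2516 of the 10916. With the replicate number as a block, 10 of the 28 (35.7%) were called, 8 higher and 2 lower, beside 32% of all genes (14.6% higher and 17.5% lower). All values below are log2(intensity + 16) after quantile normalization, a scale that understates changes of dim genes.

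**Figure D1:**
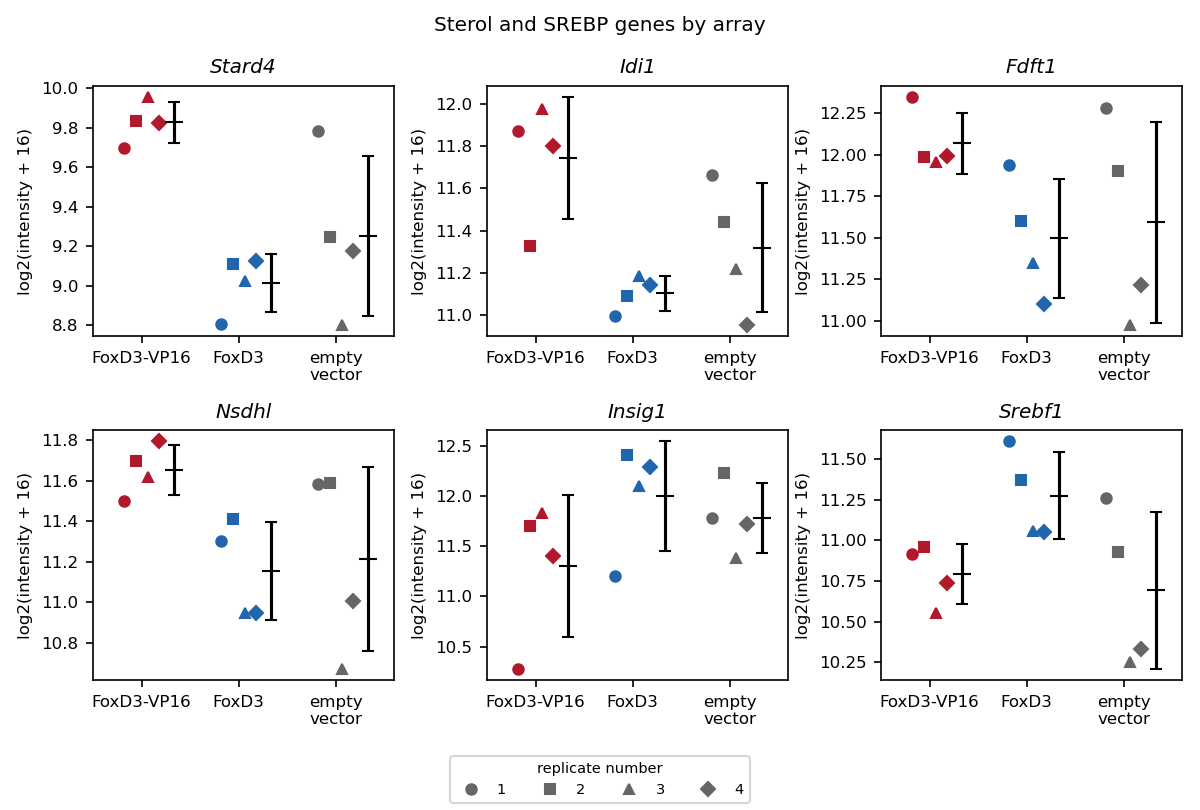
Values of 6 of the 28 genes on every array: the vertical axis is log2(intensity + 16), the horizontal axis the vector, and marker shapes the replicate number, with black bars for the mean and SD of 4 arrays. The 4 FoxD3-VP16 arrays lie above the 4 FoxD3 arrays for Stard4 (9.70 to 9.95 against 8.81 to 9.12), Idi1, Fdft1 and Nsdhl and below them for Srebf1, while the Insig1 groups overlap.

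Stard4 measured 9.70, 9.84, 9.95 and 9.82 on the FoxD3-VP16 arrays numbered 1 to 4, 8.81, 9.11, 9.02 and 9.12 on the FoxD3 arrays, and 9.79, 9.24, 8.80 and 9.18 on the empty-vector arrays. Every FoxD3-VP16 array was above every FoxD3 array, and the empty-vector array numbered 1 reached the FoxD3-VP16 range. The log2 change between the FoxD3 forms was 0.81 (SE 0.19, 95% interval 0.39 to 1.23, adjusted p = 0.0183 in limma, 0.00365 with the block). Its 3 probe sets had changes of 0.92, 0.81 and 0.77. The call was lost when the FoxD3 array numbered 3 (adjusted p = 0.0503), the FoxD3-VP16 array numbered 3 (0.0610) or the FoxD3-VP16 array numbered 4 (0.0502) was left out.

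In the mevalonate arm, Idi1 measured 11.87, 11.32, 11.98 and 11.80 on the FoxD3-VP16 arrays, 10.995, 11.09, 11.18 and 11.14 on the FoxD3 arrays, and 11.67, 11.44, 11.22 and 10.95 on the empty-vector arrays. The FoxD3-VP16 and FoxD3 arrays did not overlap, while the empty-vector arrays numbered 1 and 2 lay within the FoxD3-VP16 range. The change was 0.64 (SE 0.18, 95% interval 0.26 to 1.02, adjusted p = 0.0367 in limma, 0.00468 with the block), and its other probe set gave 0.70. The call of Idi1 was lost under 10 of 23 alternatives, which gave changes of 0.55 to 0.67 and adjusted p = 0.0504 to 0.116. These were leaving out any 1 of the 4 FoxD3 arrays or of the FoxD3-VP16 arrays numbered 1, 3 and 4, leaving out all arrays numbered 1, no filter on low values, and the mean of its probe sets.
Fdps, which makes farnesyl diphosphate, measured 12.46, 13.17, 12.96 and 13.06 with FoxD3-VP16, 12.20, 12.88, 12.39 and 12.40 with FoxD3, and 12.52, 13.32, 12.08 and 12.62 with the empty vector. Within each replicate number FoxD3-VP16 was above FoxD3, although the groups overlap. The difference of 0.44 (SE 0.24, adjusted p = 0.311) was called with the block (adjusted p = 0.0209). With the mean of its 2 probe sets, 1 of them below the brightness limit, it was 0.07. The other 4 genes of this arm, the synthase Hmgcs1, the kinases Mvk and Pmvk and the decarboxylase Mvd, had differences of 0.38, 0.09, 0.05 and 0.39 and were called in neither fit. A dimmer probe set of Mvk, still above the brightness limit, gave 0.77.

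In the sterol arm, all 11 differences were positive, from 0.10 to 0.57. None was called without the block in limma (adjusted p = 0.157 to 0.893). Of the 11, 2 had an unadjusted p under 0.05, beside 2516 of all 10916 genes. Fdft1, squalene synthase, which commits farnesyl diphosphate to sterols, measured 12.35, 11.98, 11.96 and 11.99 with FoxD3-VP16, 11.94, 11.60, 11.35 and 11.10 with FoxD3, and 12.28, 11.90, 10.98 and 11.21 with the empty vector. FoxD3-VP16 arrays lay above FoxD3 arrays without overlap, and the lowest values of the FoxD3 and empty-vector groups came from the arrays numbered 3 and 4. The difference was 0.57 (SE 0.26, adjusted p = 0.217), called with the block (adjusted p = 0.00659). Averaging its probe sets, some of which lie below the brightness limit, gave 0.29, and its other probe set above that limit gave 0.46.
Nsdhl, a dehydrogenase in the removal of methyl groups from sterols, measured 11.50, 11.70, 11.62 and 11.79 with FoxD3-VP16, 11.30, 11.41, 10.95 and 10.95 with FoxD3, and 11.58, 11.59, 10.67 and 11.01 with the empty vector. Again the FoxD3-VP16 arrays were above all FoxD3 arrays. The difference was 0.50 (SE 0.20, adjusted p = 0.157), called with the block (adjusted p = 0.0172). Tm7sf2, a sterol reductase, measured 7.83, 7.996, 7.63 and 7.52 with FoxD3-VP16, 7.05, 7.73, 7.09 and 6.98 with FoxD3, and 7.84, 8.07, 7.55 and 7.87 with the empty vector. Its FoxD3 array numbered 2 overlapped the FoxD3-VP16 group. The difference was 0.53 (SE 0.23, adjusted p = 0.177), called with the block (adjusted p = 0.0444).
The other 8 genes were called in neither fit: squalene epoxidase Sqle (0.10), lanosterol synthase Lss (0.18), lanosterol demethylase Cyp51 (0.27), the methylsterol oxidase Msmo1 (0.31), the ketoreductase Hsd17b7 (0.27), the sterol isomerase Ebp (0.25), the sterol desaturase Sc5d (0.33) and Dhcr7, which completes cholesterol (0.10). For Sqle the 95% interval of -0.51 to 0.71 leaves room for a difference in either direction.

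Taken by sign, all 17 enzymes of the mevalonate and sterol arms had higher means in FoxD3-VP16 cells than in FoxD3 cells, with a median difference of 0.31, beside a median of -0.03 and 47.1% positive over all genes. The number of positive enzymes ran from 14 to 17 over 23 alternatives and was 17 in the values as deposited. Some of these alternatives, such as the block and the filter settings, could not change a sign. In 10 of the 17, FoxD3-VP16 was higher within all 4 replicate numbers, beside 23.6% of all genes higher in all 4. In numbers 1 to 4, 12, 16, 16 and 17 of the 17 were higher, with medians of 0.14, 0.24, 0.41 and 0.46. The genes were read on the same arrays, so their signs are not independent observations, here or in the comparisons below. Over all 28 genes the median was 0.26 and 22 were positive. Over the alternatives the median ran from 0.12 (mean of all probe sets) to 0.34 and the number of positive genes from 19 to 23, and without the FoxD3-VP16 array numbered 2 the median was 0.14.

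**Figure D2:**
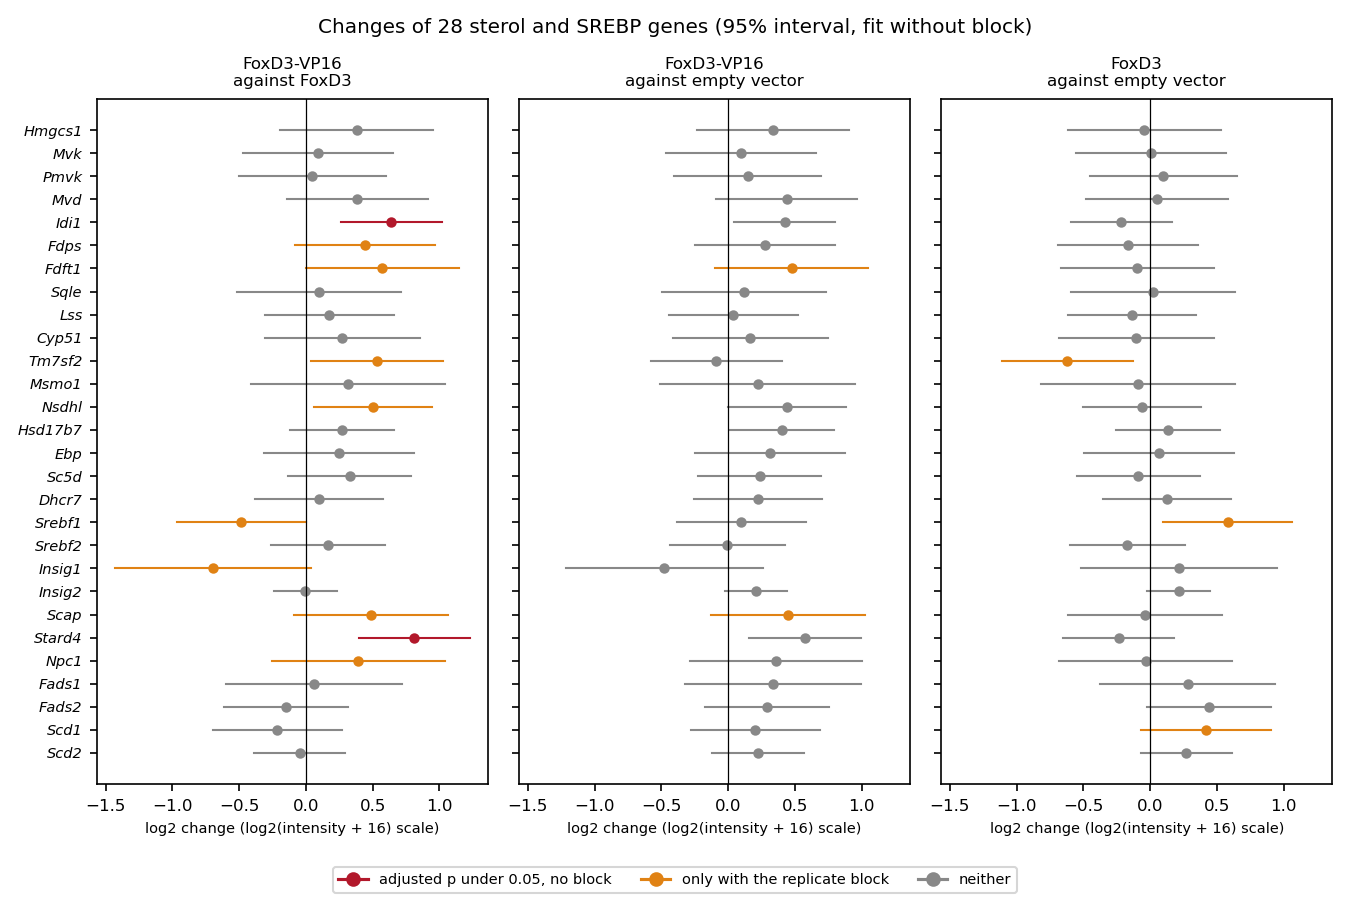
Log2 change of each of the 28 genes (horizontal axis, log2(intensity + 16) scale) in each comparison, with the 95% interval of the fit without a block, and genes listed down the page by role. Red marks genes called without the block (Stard4 and Idi1 in FoxD3-VP16 against FoxD3), orange those called with the replicate block alone, and grey the rest.

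Among the 5 proteins that control the pathway, Insig1 and Srebf1 were called lower and Scap higher with FoxD3-VP16, in each case with the block only. Insig1, which holds SCAP in the endoplasmic reticulum and is itself an SREBP target, measured 10.28, 11.71, 11.84 and 11.41 with FoxD3-VP16, 11.20, 12.41, 12.10 and 12.29 with FoxD3, and 11.79, 12.24, 11.39 and 11.73 with the empty vector. The FoxD3-VP16 and FoxD3 arrays numbered 1 lay below the others of their groups, and within each number FoxD3-VP16 was the lower one. The difference was -0.69 (SE 0.34, adjusted p = 0.249), called with the block (adjusted p = 0.0237). Without the FoxD3-VP16 array numbered 1 it was -0.35.
Srebf1, the SREBP gene tied most closely to fatty acid synthesis, measured 10.92, 10.96, 10.55 and 10.74 with FoxD3-VP16, 11.61, 11.37, 11.06 and 11.05 with FoxD3, and 11.26, 10.93, 10.25 and 10.33 with the empty vector. Every FoxD3-VP16 array was below every FoxD3 array. The difference was -0.48 (SE 0.22, adjusted p = 0.217), called with the block (adjusted p = 0.00601). Scap, the escort of SREBP, measured 11.82, 11.03, 10.96 and 11.39 with FoxD3-VP16, 11.31, 10.69, 10.77 and 10.49 with FoxD3, and 11.54, 10.90, 10.43 and 10.54 with the empty vector. Its FoxD3-VP16 and FoxD3 groups overlap through the FoxD3 array numbered 1. The arrays numbered 1 were the highest of each group. The difference was 0.49 (SE 0.27, adjusted p = 0.306), called with the block (adjusted p = 0.00939). With the mean of its 2 probe sets, 1 of them below the brightness limit at -0.55, the direction turned (-0.03). Without the FoxD3-VP16 array numbered 1 the difference was 0.31.
Srebf2, the SREBP gene of cholesterol synthesis itself, differed by 0.17 and Insig2 by -0.00, and neither was called in either fit. The 95% interval was -0.26 to 0.59 for Srebf2 and -0.24 to 0.23 for Insig2, the narrowest of the 28. It holds for the brightest probe set of Insig2 alone, as its other probe sets, also above the brightness limit, gave 0.23 and 0.28.

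Npc1, which passes cholesterol out of lysosomes, measured 9.26, 10.42, 10.29 and 10.03 with FoxD3-VP16, 9.01, 10.18, 9.67 and 9.59 with FoxD3, and 9.28, 10.22, 9.53 and 9.55 with the empty vector. The arrays numbered 1 were the lowest in all 3 groups. The difference of 0.39 (SE 0.30, adjusted p = 0.501) was called with the block (adjusted p = 0.0318). It was 0.19 without the FoxD3 array numbered 1, 0.64 without the FoxD3-VP16 array numbered 1 and 0.25 without the FoxD3-VP16 array numbered 2. The 4 desaturases of fatty acids, Fads1, Fads2, Scd1 and Scd2, had differences of 0.06, -0.15, -0.21 and -0.05, and none was called in either fit. Further probe sets of Fads2 gave -0.58 and 0.13, and those of Scd2 gave -0.07 and 0.29. Groups of arrays did not overlap for 5 of the 28 genes (17.9%), 4 higher and 1 lower, beside 18.2% of all genes (8.05% higher and 10.1% lower).

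FoxD3-VP16 against empty vector. No gene of the set was called without the block in this comparison, where 0.595% of all genes were called (0.522% higher and 0.0733% lower). In limma 3 of the 28 had an unadjusted p under 0.05, beside 1129 of all 10916 genes. With the replicate block Fdft1 (0.48, SE 0.26, adjusted p = 0.608, 0.0426 with the block) and Scap (0.45, SE 0.27, adjusted p = 0.645, 0.0360 with the block) were called higher, 2 of 28 or 7.14%, beside 11.1% of all genes (5.73% higher and 5.41% lower). Both were among the 5 of 28 genes higher with FoxD3-VP16 within all 4 replicate numbers, beside 14.3% of all genes. Fdft1 was at 0.27 without the empty-vector array numbered 3 and at 0.78 with array weights, and Scap at 0.28 without the FoxD3-VP16 array numbered 1. Stard4 had the largest difference of the 28, 0.57 (SE 0.19, adjusted p = 0.286, 0.0552 with the block), and without the 3 arrays numbered 1 it was 0.80 and called (adjusted p = 0.0248). The groups of arrays did not separate for any of the 28 genes, beside 5.71% of all genes.

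In sign, 25 of the 28 genes were higher with FoxD3-VP16 than with the empty vector, with a median difference of 0.23 beside -0.02 over all genes. Over the alternatives 21 to 26 were positive. The median was 0.10 without the empty-vector array numbered 3, 0.43 without that numbered 2 and 0.36 without the 3 arrays numbered 1. It was 0.54 with array weights, which favour the arrays numbered 3 and 4. Under these weights 21 of the 28 were called, beside 31.7% of all genes. The 3 lower ones were Insig1 (-0.48), Tm7sf2 (-0.09) and Srebf2 (-0.01). Of the 17 enzymes 16 were positive, and 13 to 16 were positive over the alternatives. The 6 genes of the mevalonate arm lay between 0.10 and 0.44, and the 4 desaturases between 0.20 and 0.34.
The sign depended on the replicate number. The median difference of the 28 genes was -0.08 between the arrays numbered 1, -0.04 between those numbered 2, 0.65 between those numbered 3 and 0.47 between those numbered 4. FoxD3-VP16 was higher for 9 and 12 genes in the first 2 numbers, and for 28 and 26 genes in the others. The empty-vector array numbered 3 was the lowest of its group for 21 of the 28 genes, and that numbered 2 was the highest for 20. The spread over arrays was a median SD of 0.27 with FoxD3-VP16, 0.29 with FoxD3 and 0.44 with the empty vector.

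**Figure D3:**
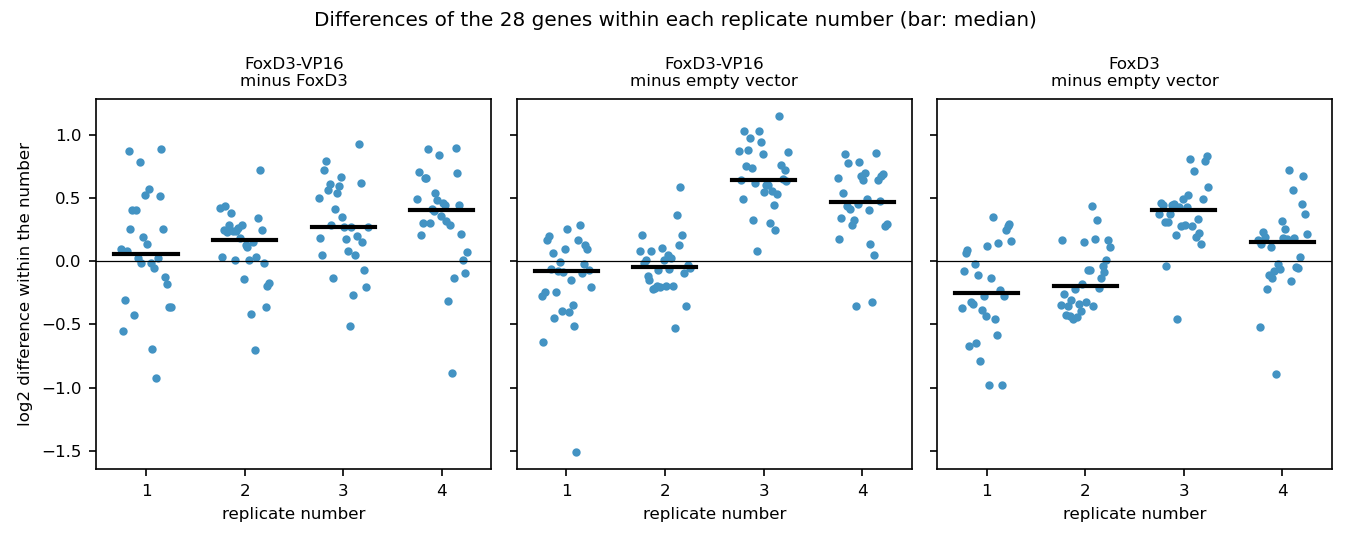
Difference of each of the 28 genes between arrays of the same replicate number (vertical axis, log2; horizontal axis, replicate number), with a bar at the median, for the 3 comparisons. Against the empty vector the medians lie below 0 for numbers 1 and 2 and above 0 for numbers 3 and 4, whereas for FoxD3-VP16 minus FoxD3 all 4 medians lie above 0, from 0.06 to 0.41.

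FoxD3 against empty vector. No gene of the set was called without the block, where 4.01% of all genes were (2.89% higher and 1.12% lower). In limma 2 of the 28 had an unadjusted p under 0.05, beside 1762 of all 10916 genes. With the block 3 of 28 (10.7%) were called, beside 21% of all genes (11.8% higher and 9.21% lower): Srebf1 and Scd1 higher and Tm7sf2 lower. Srebf1 was higher with FoxD3 within every replicate number by the values given above, although the groups overlap, with a difference of 0.58 (SE 0.22, adjusted p = 0.201, 0.00325 with the block). Tm7sf2 was lower within every number, with a difference of -0.62 (SE 0.23, adjusted p = 0.177, 0.0316 with the block).

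Scd1, the desaturase that makes monounsaturated fatty acids, measured 12.13, 12.76, 12.27 and 12.33 with FoxD3-VP16, 12.49, 12.96, 12.47 and 12.42 with FoxD3, and 12.20, 12.79, 11.64 and 12.05 with the empty vector. FoxD3 was the highest of the 3 vectors within each number. Its difference from the empty vector was 0.42 (SE 0.22, adjusted p = 0.398, 0.0140 with the block), and 0.24 without the empty-vector array numbered 3. The other 3 desaturases were also positive, Fads1 at 0.28, Fads2 at 0.44 and Scd2 at 0.27, and were called in neither fit, although Fads2 was called without the empty-vector array numbered 2 (0.67, adjusted p = 0.0359). Fads2, Scd1 and Scd2 were among the 5 of 28 genes higher in 4 of 4 replicate numbers, beside 21.1% of all genes higher in all 4.

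The enzymes showed no common sign here: 7 of 17 were positive, with a median of -0.06, and over the alternatives 2 to 14 were positive. The 28 genes had 14 positive and 14 negative differences and a median of -0.01 beside -0.00 over all genes. Over the alternatives that median ran from -0.13 (without the empty-vector array numbered 3) to 0.18 (array weights). Their median was -0.25 between arrays numbered 1, -0.20 for number 2, 0.40 for number 3 and 0.15 for number 4. Insig2 was the only one of the 28 whose groups of arrays did not overlap (3.57%, beside 11.5% of all genes). Its mean was 11.72 ± 0.03 with FoxD3 and 11.50 ± 0.10 with the empty vector (SD, n = 4 each), a difference of 0.21 that was called in neither fit (adjusted p = 0.368 in limma, 0.0678 with the block). The 3 comparisons share arrays in pairs, so they are not independent of one another.

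Further probe sets of a gene did not always have the sign of the brightest one. The 28 genes had 61 probe sets, and 19 genes had several. Of 27 further probe sets above the brightness limit, 20 had the sign of the brightest in FoxD3-VP16 against FoxD3, 22 in FoxD3-VP16 against the empty vector and 15 in FoxD3 against the empty vector. For Lss another probe set gave -0.30 in FoxD3-VP16 against FoxD3, where the brightest gave 0.18, and for Sc5d another gave -0.13 against 0.33. Further probe sets of Cyp51, Insig2, Fads2 and Scd2 also differed in sign in that comparison. The mean of the probe sets of Scap takes in 1 below that limit, with the opposite sign.

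Partners of SREBP and neighbouring lipid genes were taken as lists outside the 28. Over all 10916 genes, 2516 had an unadjusted p under 0.05 in limma in FoxD3-VP16 against FoxD3. Against the empty vector the counts were 1129 with FoxD3-VP16 and 1762 with FoxD3. The counts of list genes at this level below are to be read beside these. Among SREBP processing genes and partners, of 8 listed 7 were tested, and in FoxD3-VP16 against FoxD3 1 was called lower and 0 higher, beside 9.57% of all genes called, and with the block 3 lower and 1 higher, beside 32% of all genes. Nfyb, a subunit of NF-Y, measured 9.36, 9.92, 9.78 and 9.85 with FoxD3-VP16, 11.10, 10.57, 11.16 and 11.14 with FoxD3, and 10.23, 9.90, 10.68 and 10.57 with the empty vector. All FoxD3-VP16 arrays were below all FoxD3 arrays, and the change was -1.26 (SE 0.21, adjusted p = 0.00200), with another probe set at -1.39. With the mean of its probe sets in place of the brightest, the change was -1.33 and was not called (adjusted p = 0.0630). The NF-Y subunit Nfya (-0.80, adjusted p = 0.106, 0.000172 with the block), Sp1 (-0.78, adjusted p = 0.0720, 0.000151 with the block) and Mbtps1, a protease that cuts SREBP (0.36, adjusted p = 0.302, 0.0259 with the block), were called with the block only. Mbtps1 turned to -0.30 with the mean of its probe sets, all but the brightest of which lie below the brightness limit. It was 0.19 without the FoxD3 array numbered 1. Against the empty vector, none was called without the block in limma (1 with FoxD3-VP16 and 2 with FoxD3 at an unadjusted p under 0.05). With it, beside 11.1% and 21% of all genes in these comparisons, FoxD3-VP16 had Nfyb lower (-0.62, adjusted p = 0.289, 0.0234 with the block), while FoxD3 had Nfya (0.65, 0.278, 0.00137 with the block), Nfyb (0.65, 0.113, 0.00987 with the block) and Sp1 (0.46, 0.415, 0.00947 with the block) higher. Nfya was 0.43 without the FoxD3 array numbered 1, and Sp1 was 0.28 without the empty-vector array numbered 1 and 0.23 with array weights.

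Among 10 genes of fatty acid synthesis, all tested, FoxD3-VP16 against FoxD3 had 1 called higher and 1 lower, beside 4.44% and 5.13% of all genes, and with the block 2 higher and 1 lower, beside 14.6% and 17.5%. The elongase Elovl5 measured 13.33, 12.79, 13.19 and 13.06 with FoxD3-VP16, 12.50, 12.12, 12.33 and 12.21 with FoxD3, and 12.85, 12.39, 12.08 and 12.10 with the empty vector. The FoxD3-VP16 and FoxD3 arrays did not overlap, and the change was 0.80 (SE 0.18, adjusted p = 0.0131). Fasn, fatty acid synthase, measured 11.91, 11.71, 11.73 and 11.89 with FoxD3-VP16, 12.65, 12.19, 12.29 and 12.18 with FoxD3, and 12.30, 12.12, 11.85 and 11.91 with the empty vector. It was lower on all FoxD3-VP16 arrays than on any FoxD3 array, with a change of -0.52 (SE 0.14, adjusted p = 0.0375), which was called under 14 of 23 alternatives. Fasn lost the call without any 1 of the FoxD3 arrays numbered 1, 3 and 4, the FoxD3-VP16 arrays numbered 2, 3 and 4 and the empty-vector array numbered 4 (adjusted p = 0.0505 to 0.105), in the values as deposited (0.0531) and with no filter on low values (0.0585). Lpin1, a phosphatidate phosphatase, was called with the block only (0.61, adjusted p = 0.0738, 0.00423 with the block).
Against the empty vector, Lpin1 measured 11.34, 10.71, 10.81 and 11.07 with FoxD3-VP16, 10.45, 10.23, 10.51 and 10.32 with FoxD3, and 10.01, 9.52, 9.84 and 10.41 with the empty vector. FoxD3-VP16 lay above the empty vector without overlap, a change of 1.04 (SE 0.20, adjusted p = 0.0348) that was called under 13 of 23 alternatives, and it was the 1 gene of this list called, beside 0.595% of all genes. Lpin1 lost the call without any 1 of the FoxD3-VP16 arrays numbered 1, 3 and 4, the FoxD3 arrays numbered 2, 3 and 4 and the empty-vector arrays numbered 1, 2 and 3 (adjusted p = 0.0517 to 0.158), and with only these groups in the fit (0.130), and was 0.69 with array weights. Elovl5 was called with the block (0.74, adjusted p = 0.107, 0.00121 with the block), which made 2 of 10 beside 11.1% of all genes. FoxD3 against the empty vector had 0 called in limma (2 at an unadjusted p under 0.05), beside 4.01% of all genes, and with the block, beside 21%, Lpin1 (0.43, adjusted p = 0.303, 0.0387 with the block) and Fasn (0.28, adjusted p = 0.359, 0.0354 with the block) higher. Lpin1 was 0.17 with array weights there, and Fasn was 0.18 without the FoxD3 array numbered 1.

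Of 10 other sterol and isoprenoid genes 8 were tested, and none was called without the block in any comparison (with 4, 1 and 1 at an unadjusted p under 0.05 in limma for FoxD3-VP16 against FoxD3, FoxD3-VP16 against the empty vector and FoxD3 against the empty vector). With the block 3 were called higher and 2 lower in FoxD3-VP16 against FoxD3, beside 14.6% and 17.5% of all genes. These include Lipa, the lysosomal lipase that frees cholesterol from its esters (0.89, adjusted p = 0.183, 3.31e-05 with the block), the retinal reductase Rdh11 (0.69, 0.196, 0.00155 with the block), the cytochrome reductase Cyb5r3 (-0.37, 0.155, 0.0353 with the block) and the sterol reductase of the nuclear envelope Lbr (-0.34, 0.114, 0.00633 with the block). In FoxD3-VP16 against the empty vector 3 were called with the block, all higher, beside 5.73% of all genes: Rdh11 (0.75, 0.405, 0.00436 with the block), Lipa (0.71, 0.585, 0.00112 with the block) and Npc2, which works with Npc1 in lysosomes (0.22, 0.954, 0.0495 with the block). Npc2 turned to -0.12 and Lipa was 0.46 without the FoxD3-VP16 array numbered 1. Over the arrays left out Npc2 ran up to 0.57 (without the empty-vector array numbered 1). Cyb5r3 was the 1 called with the block in FoxD3 against the empty vector (0.41, 0.178, 0.0315 with the block), beside 21% of all genes. With the mean of its probe sets Cyb5r3 was -0.01 there and -0.11 in FoxD3-VP16 against FoxD3. That mean takes in a probe set below the brightness limit. Between the FoxD3 forms Cyb5r3 was -0.24 without the 3 arrays numbered 1 and -0.22 with array weights.

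Of 9 genes of the oxysterol response, esterification and efflux, 3 were tested. In FoxD3-VP16 against FoxD3 1 was called in each fit, beside 9.57% and 32% of all genes. In FoxD3-VP16 against the empty vector 0 were called in limma (2 at an unadjusted p under 0.05) and 2 with the block, beside 0.595% and 11.1%. In FoxD3 against the empty vector 1 was called and 2 with the block, beside 4.01% and 21%. Mylip, a ubiquitin ligase induced by oxysterol receptors, measured 11.64, 10.76, 10.79 and 10.78 with FoxD3-VP16, 10.58, 9.41, 9.25 and 9.18 with FoxD3, and 10.71, 10.32, 10.00 and 10.27 with the empty vector. The FoxD3-VP16 arrays were above all others, and the change from FoxD3 was 1.39 (SE 0.31, adjusted p = 0.0122). Against the empty vector Mylip was called with the block only, higher with FoxD3-VP16 (0.67, adjusted p = 0.477, 0.00944 with the block) and lower with FoxD3 (-0.72, adjusted p = 0.256, 0.00249 with the block). Abca1, the pump that exports cholesterol, measured 10.63, 9.32, 10.28 and 10.05 with FoxD3-VP16, 11.04, 10.13, 10.69 and 10.63 with FoxD3, and 9.02, 7.30, 9.66 and 9.42 with the empty vector. FoxD3 lay above the empty vector without overlap, a change of 1.77 (SE 0.44, adjusted p = 0.0414) that was called under 13 of 23 alternatives, while FoxD3-VP16 against the empty vector (1.22, adjusted p = 0.331, 0.00695 with the block) was called with the block only, at 0.70 without the empty-vector array numbered 2 and 0.67 with array weights. The empty-vector array numbered 2 was the lowest for Abca1. Abca1 lost the call without any 1 of the 4 FoxD3 arrays, the empty-vector arrays numbered 1 and 4 and the FoxD3-VP16 arrays numbered 3 and 4 (adjusted p = 0.0525 to 0.111), without all arrays numbered 1 (0.0885) and with only these groups in the fit (0.0781).

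**Figure D4:**
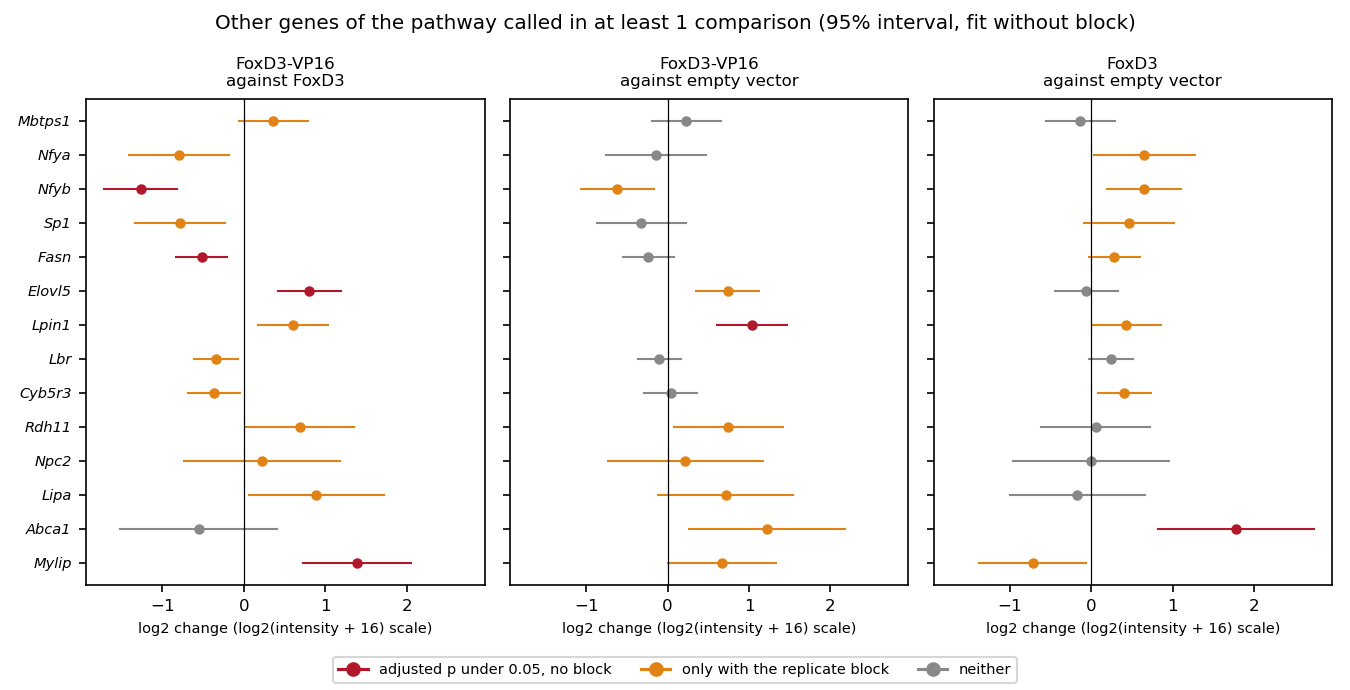
Log2 change (horizontal axis, log2(intensity + 16) scale) with the 95% interval of the fit without a block for 14 genes of the SREBP, fatty acid, sterol and oxysterol lists called in at least 1 comparison, with or without the block. Nfyb (-1.26), Fasn (-0.52), Elovl5 (0.80) and Mylip (1.39) are red in FoxD3-VP16 against FoxD3, Lpin1 in FoxD3-VP16 against the empty vector and Abca1 in FoxD3 against the empty vector.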

How the data were processed

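Per the labels, RNA of sorted B16-F10 cells was amplified in 1 round, labelled with biotin and read on 12 one-colour arrays. For 45101 probe sets the authors deposited an intensity on a linear scale. The submitters' processing notes name MAS5, with a version not given in the sources used here, and a label names dChip. In the deposited table the trimmed mean (2% of probe sets taken off each end) was 500.003 to 500.004 on every array, and the medians of log2(intensity + 16) spanned 0.79.

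From these intensities log2(intensity + 16) was computed, 64 control probe sets were dropped and arrays were quantile normalized. In the platform annotation 34945 probe sets had 1 symbol, and 932 with several symbols and 9160 not listed were not used. The brightest probe set stood for each of 18193 genes, and the lowest 40% (below 5.98) were left out, which left 10916. limma 3.58.1 in R 4.3.3 (lmFit, eBayes with trend) fitted all 12 arrays without a block (9 residual and 3.98 prior degrees of freedom), with Benjamini-Hochberg adjustment over all genes tested, two-sided, at 0.05. Intervals are 95%. Figures used matplotlib 3.10.9 in Python 3.11.15.

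Groups and replicate numbers came from the sample titles. Deviations from group means correlated at 0.37 to 0.67 in the 12 same-number pairs, at 0.37 to 0.54 in 6 pairs of numbers 3 and 4, and at -0.51 to 0.12 in 30 other pairs, so the numbers were taken to pair the samples. This correlation is the source of the pairing, since the labels do not state it. It does not tell numbers 3 and 4 apart, because the range between them lies within that of same-number pairs. The blocked fit, also made with limma and with the number as block (6 residual and 7.30 prior degrees of freedom), stands beside results whose call it changes. Every one of the 28 genes is described, those called in either fit with every array, and of the other lists at most 4 called genes per comparison are named. The genes and lists were chosen with earlier results of these data known. Alternatives covered the block, normalization, pseudocount, filter, probe set, arrays in the fit, array weights, arrays numbered 1 and each array left out.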

Additional observations from a re-analysis of the deposited data

Results flagged for a closer look

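Over 84 sets of 4 arrays (28 genes in 3 groups), 6 had 1 array far from its 3 fellows by Dixon's criterion at the 95% level, and chance alone flags about 1 set in 20. With FoxD3-VP16, Fdft1 was highest on the array numbered 1 at 12.35, with the others at 11.96 to 11.99. With FoxD3-VP16, Sqle was highest on the array numbered 2 at 12.61, with the others at 12.20 to 12.25. Hsd17b7 was lowest with FoxD3-VP16 on the array numbered 2 at 9.84, with the others at 10.29 to 10.31. On the FoxD3 array numbered 2, Cyp51 was high at 11.92 (others 11.20 to 11.32), Tm7sf2 at 7.73 (others 6.98 to 7.09) and Scd1 at 12.96 (others 12.42 to 12.49). Arrays numbered 2 accounted for 5 of the 6.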

How the results depend on the processing

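Of 1926 changes recomputed for the 28 genes under 23 alternatives, 1853 stayed on their side of the threshold, 59 became called, 13 lost the call and 1 reversed with a call. Of the 1853, 1758 kept their sign and 95 changed it, none of them called. The replicate block, the filter settings and the fit of only the groups compared leave the size of each change as it was. These settings could alter a call but not a sign. With the replicate block the counts of the 28 called were 10 in FoxD3-VP16 against FoxD3, 2 in FoxD3-VP16 against the empty vector and 3 in FoxD3 against the empty vector, and over all genes 3498, 1217 and 2297, beside 1045, 65 and 438 without it. Array quality weights gave 16, 21 and 10 of the 28 in the same order (4455, 3465 and 4193 of all genes), and reversed Sc5d in FoxD3 against the empty vector (0.28, adjusted p = 0.0358, against -0.09) and Aacs, of the fatty acid list, in FoxD3-VP16 against the empty vector (0.38, adjusted p = 0.0366, against -0.02). For FoxD3-VP16 against FoxD3, no filter on low values, the mean of all probe sets and leaving out the arrays numbered 1 each gave 1 of 28. Without the arrays numbered 1, FoxD3-VP16 against the empty vector also gave 1 (Stard4), and 1815, 277 and 870 of all genes were called. Leaving out each array in turn gave 0 to 2 of the 28 in FoxD3-VP16 against FoxD3 (602 to 1214 of all genes), 0 in FoxD3-VP16 against the empty vector (13 to 82) and 0 to 1 in FoxD3 against the empty vector (197 to 555). With only the groups compared in the fit, FoxD3-VP16 against the empty vector had 20 of all genes called. With the lowest 60% left out, 26 of the 28 genes were tested, and 274 of all genes were called in FoxD3 against the empty vector. The causes of these shifts were not tested. Changes of dim genes are limited by signal over background.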
